A study of Astyanax mexicanus with 6 samples.

Results

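The genes described here are 10 genes of cholesterol synthesis and uptake in embryonic fibroblast lines of the Mexican tetra, *Astyanax mexicanus*: *hmgcra*, *hmgcs1*, *mvk*, *fdps*, *fdft1*, *lss*, *cyp51*, *dhcr7*, *ldlra* and *aacs*. They were found by their gene names, ignoring case, and matched 12 rows of the 27420 genes in the deposited tables, since *mvk* and *cyp51* are each the name of 2 rows. RNA of a surface fish line (SEF) and of a line from the cave population Pachón (PEF), both wild type and untreated, was sequenced as 3 libraries per line. The lines were grown from dissociated embryos as individual clones, passaged many times, and kept in the same medium with fetal bovine serum and insulin. Each population is thus represented by a single line, so a difference between populations and a difference between lines cannot be told apart, and p-values measure only the spread between libraries of a line.

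Cells obtain cholesterol by making it from acetyl-CoA and by taking up lipoproteins. The synthesis route runs from acetyl-CoA through mevalonate to farnesyl diphosphate, from which squalene, lanosterol and finally cholesterol are built. In mammals, the transcription factor SREBP2, encoded by *SREBF2*, is held back by SCAP and INSIG proteins while sterols are plentiful, and when sterols fall it raises the genes of the synthesis enzymes and the LDL receptor together.

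Between 33381563 and 42506026 reads were counted on genes per library. PEF replicate 1 stood apart from the other PEF libraries. Its log2 CPM values (read counts scaled for library size) correlated with them at 0.978 and 0.983 across genes, which are not independent replicates, against 0.994 between PEF replicates 2 and 3 and 0.980 to 0.991 among SEF libraries. For some of the results that change without it, values with and without it are given. Of 6 fibroblast marker genes, *col1a1a*, *col1a1b*, *col1a2*, *col5a1* and *pdgfra* were present at 7.75 TPM (transcript abundance per length and library total) or more in every library, whereas *vim* reached at most 4.14 TPM. The keratin gene *krt8*, usually an epithelial marker, was at 992 to 3847 TPM in its higher row. The epithelial marker *epcam* and the liver markers *fabp10a*, *apoa2* and *hnf4a* had at most 3 reads in a library. With the liver marker *tfa*, these rows summed to 8.40 to 11.5 TPM in SEF and 0.47 to 6.44 TPM in PEF. Nearly all of this sum was *tfa*.

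Most of the pathway was expressed at lower levels in PEF. All 12 rows had enough reads for a test with edgeR's quasi-likelihood method on the read counts. At an adjusted p under 0.05, 9 of 12 rows were lower in PEF, where 33.1% of the 16670 genes tested were lower, and 1 of 12 was higher, where 30.4% of all genes were. The median log2 ratio, PEF over SEF as fitted by edgeR, was -2.28 over the 12 rows and -0.02 over all genes tested. For 8 of the 12 rows, every PEF library lay under every SEF library, against 36.7% of all genes tested. In these bulk samples, fewer cells that express a gene and less RNA per cell cannot be told apart. *krt8* was higher in PEF (992 to 1420 TPM in SEF, 3431 to 3847 TPM in PEF) and *vim* lower (2.79 to 4.14 TPM in SEF, 0.88 to 1.62 TPM in PEF). Of all 6 fibroblast markers, 3 were higher in PEF, 1 lower and 2 not called, beside 30.4% higher and 33.1% lower over all genes tested. Their summed level overlapped between lines, at 6352 to 10375 TPM in SEF and 8097 to 13832 TPM in PEF. The part of these marker differences in the result was not tested. Among the members that form or first phosphorylate mevalonate, *hmgcra* was 1.46-fold lower, 1 *mvk* row was 1.71-fold higher and *hmgcs1* and the other *mvk* row did not pass. The members from *fdps* to *dhcr7* were 3.37-fold to 7.83-fold lower in PEF.

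**Figure D1:**
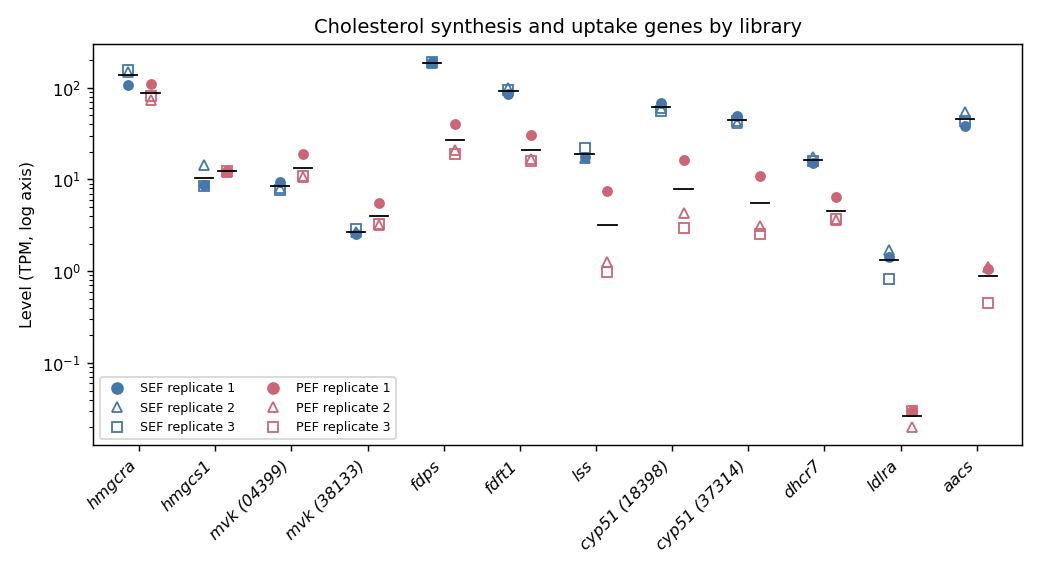
Level of each of the 12 rows in every library, in TPM (a level per transcript length and library total) on a log axis, with SEF in blue, PEF in red, a symbol per replicate and a bar at the mean of 3 libraries; digits in brackets end the gene identifier where 2 rows share a name. The synthesis genes from *fdps* to *dhcr7* were lower in each PEF library, PEF replicate 1 was the highest PEF library for all of them, and *ldlra* and *aacs* show the widest gaps.

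*hmgcra* (ENSAMXG00000007971) encodes HMG-CoA reductase, the rate-limiting enzyme of the pathway and the target of statins. Its level was 107, 148 and 154 TPM in SEF replicates 1, 2 and 3 and 109.7, 73.5 and 80.45 TPM in PEF replicates 1, 2 and 3. PEF replicate 1 lay just above the lowest SEF library in TPM, so the lines overlapped. The log2 ratio was -0.55 (standard error, SE, 0.18, edgeR adjusted p = 0.0341), a 1.46-fold lower level in PEF. This call was lost when SEF replicate 2, SEF replicate 3, PEF replicate 2 or PEF replicate 3 was left out, with edgeR adjusted p-values from 0.0946 to 0.119. The second reductase gene of the lists, *hmgcrb*, was at 14.05 to 18.9 TPM in SEF and 13.4 to 16.98 TPM in PEF, with a log2 ratio of -0.13 and a 95% interval from -0.49 to 0.23.

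*hmgcs1* (ENSAMXG00000039120), the cytosolic HMG-CoA synthase one step earlier, was at 8.68, 14.2 and 8.56 TPM in SEF and 12.3, 12.1 and 12.3 TPM in PEF. SEF replicate 2 was above every PEF library, and the other SEF libraries were below every one. The log2 ratio of 0.39 (SE 0.20, edgeR adjusted p = 0.116) had a 95% interval from -0.07 to 0.86, and without SEF replicate 2 it was 0.65 and passed the threshold (edgeR adjusted p = 0.00329). *hmgcra* and *hmgcs1* therefore did not show the several-fold lower level of the later enzymes.

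*mvk*, mevalonate kinase, is the only name among the 10 with a higher call in PEF. The row ENSAMXG00000004399 was at 9.47, 8.03 and 7.66 TPM in SEF and 18.7, 10.7 and 10.95 TPM in PEF, with every PEF library above every SEF library. Its log2 ratio was 0.78 (SE 0.24, edgeR adjusted p = 0.0240), on only 87 to 95 reads in SEF and 128 to 194 in PEF. The call was lost when any 1 SEF library was left out, at edgeR adjusted p-values of 0.0541, 0.0824 and 0.0645 without SEF replicates 1, 2 and 3. It was kept without PEF replicates 1, 2 and 3, at edgeR adjusted p-values of 0.0393, 0.0186 and 0.0347. Without PEF replicate 1, the log2 ratio fell to 0.53. The second row, ENSAMXG00000038133, was at 2.57 to 2.87 TPM in SEF and at 5.49, 3.21 and 3.29 TPM in PEF, with a log2 ratio of 0.53 that did not pass (95% interval -0.17 to 1.23, edgeR adjusted p = 0.154). Without PEF replicate 1, the ratio of this row was 0.20 (edgeR adjusted p = 0.455). When the reads of both rows were summed, an alternative chosen after seeing that the name occurs in 2 rows, the log2 ratio was 0.67 (SE 0.24, edgeR adjusted p = 0.0406). The summed reads were 158 to 177 in SEF and 341, 227 and 219 in PEF replicates 1, 2 and 3. The tables give no positions, so whether such rows are separate genes or parts of a single gene cannot be told apart here.

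In the RefSeq assembly AstMex3_surface, which may not be the build behind the files, *mvk*, *hmgcra* and *aacs* lie on the same chromosome. The other 359 tested genes matched to that chromosome by symbol had a median log2 ratio of 0.76, close to the value of *mvk*. For the other members placed there, the remaining genes of their chromosomes had medians from -0.08 to 0.20. The part of this chromosome-wide shift in the values of *mvk*, *hmgcra* and *aacs* was not tested.

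*fdps* (ENSAMXG00000033230) encodes farnesyl diphosphate synthase, whose product feeds sterols, dolichol, ubiquinone and protein prenylation. In SEF it was the highest of the members, at 189, 185 and 188 TPM, a spread of 2.04 TPM (SD, n = 3). In PEF it was at 40.3, 20.98 and 18.8 TPM. The lines were far apart, and PEF replicate 1 was the highest PEF library. *fdps* was 6.59-fold lower in PEF (log2 ratio -2.72, SE 0.26, edgeR adjusted p = 0.000114).

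*fdft1* (ENSAMXG00000033139), squalene synthase, commits farnesyl diphosphate to sterols. It was expressed at 84.4, 99.5 and 94.6 TPM in SEF and at 30.5, 16.8 and 15.9 TPM in PEF, again without overlap. The difference was 4.13-fold (log2 ratio -2.04, SE 0.23, edgeR adjusted p = 0.000227).

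*lss* (ENSAMXG00000006084), lanosterol synthase, closes the sterol rings. It was at 17.5, 16.97 and 21.8 TPM in SEF, and at 7.44, 1.26 and 0.98 TPM in PEF. No other member varied as much among PEF libraries: PEF replicate 1 was 6.0-fold above the other PEF libraries and still below each SEF library. The log2 ratio was -2.51 (SE 0.71, edgeR adjusted p = 0.0169), and without PEF replicate 1 it was -3.92.

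*cyp51*, lanosterol 14-demethylase, is the target of azole antifungals in fungi. The row ENSAMXG00000018398 was at 68.5, 59.6 and 55.2 TPM in SEF and 16.3, 4.32 and 2.92 TPM in PEF, and ENSAMXG00000037314 at 49.7, 41.5 and 43.2 TPM in SEF and 10.85, 3.09 and 2.54 TPM in PEF. Both rows had the same order of libraries in PEF and no overlap between lines. Their log2 ratios were -2.88 (SE 0.56, edgeR adjusted p = 0.00321) and -2.97 (SE 0.52, edgeR adjusted p = 0.00205), and -2.93 when their reads were summed. Without PEF replicate 1, each was -3.89.

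*dhcr7* (ENSAMXG00000034790), the reductase that turns 7-dehydrocholesterol into cholesterol, was at 15.1, 17.8 and 15.9 TPM in SEF and 6.41, 3.57 and 3.68 TPM in PEF. It was 3.37-fold lower in PEF without overlap (log2 ratio -1.75, SE 0.21, edgeR adjusted p = 0.000297). The summed level of the 10 synthesis rows was 552 to 593 TPM in SEF and 149.6 to 258 TPM in PEF. *hmgcra* made up 19.4% to 26.0% of that sum in SEF and 42.5% to 53.0% in PEF.

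The other enzymes of the pathway were taken from a list of 20 names, of which 14 have a row. With edgeR, 11 of the 14 were lower in PEF (33.1% of all genes tested) and 0 were higher (30.4% of all genes tested), also 0 at an unadjusted p under 0.05 and 0 with DESeq2, since every fitted value was below 0. The median log2 ratio was -1.97. *sc5d*, the sterol C5 desaturase, was at 38.2 to 42.5 TPM in SEF and 3.00 to 7.51 TPM in PEF, a log2 ratio of -3.14 (SE 0.34, edgeR adjusted p = 0.000196). *ebp*, the sterol isomerase, had 66, 147 and 55 reads in SEF and 1, 2 and 1 in PEF, a ratio of 66.6 with a 95% counting interval from 25.7 to 246.

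Early enzymes outside the members did not all follow *hmgcra*, *hmgcs1* and *mvk*. The thiolase gene *acat2*, at the entry of the pathway, was at 105 to 124 TPM in SEF and 26.99 to 33.2 TPM in PEF (log2 ratio -1.82, SE 0.11, edgeR adjusted p = 1.50e-05). *pmvk* and *mvda*, the next steps after *mvk*, had log2 ratios of -1.29 and -1.20 (edgeR adjusted p = 0.000104 and 0.00420), and the isomerase gene *idi1* of -2.42 (edgeR adjusted p = 4.14e-05). The 3 related genes that did not pass were *hmgcrb*, *sqlea* and *lbr*. *lbr* encodes the lamin B receptor, which is also a sterol reductase, and its log2 ratio was -0.28 (95% interval -0.96 to 0.40). Squalene epoxidase, encoded by *sqlea*, was at 13.3 to 15.3 TPM in SEF and at 14.3, 5.26 and 5.63 TPM in PEF, so that its overlap came from PEF replicate 1. Without that library *sqlea* was lower in PEF by a log2 ratio of -1.34 (edgeR adjusted p = 0.000146).

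Of all 24 rows that encode synthesis enzymes, members and related genes together, 18 were lower in PEF, 1 was higher and 5 did not pass, against 33.1% lower and 30.4% higher among all genes tested. By position, the median log2 ratio was -0.34 over the 4 rows that lead to mevalonate, -1.25 over the 6 rows from mevalonate to farnesyl diphosphate, -2.04 over the 3 rows to lanosterol and -2.88 over the 11 rows from lanosterol to cholesterol. These medians describe few genes each and were not tested against each other.

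**Figure D2:**
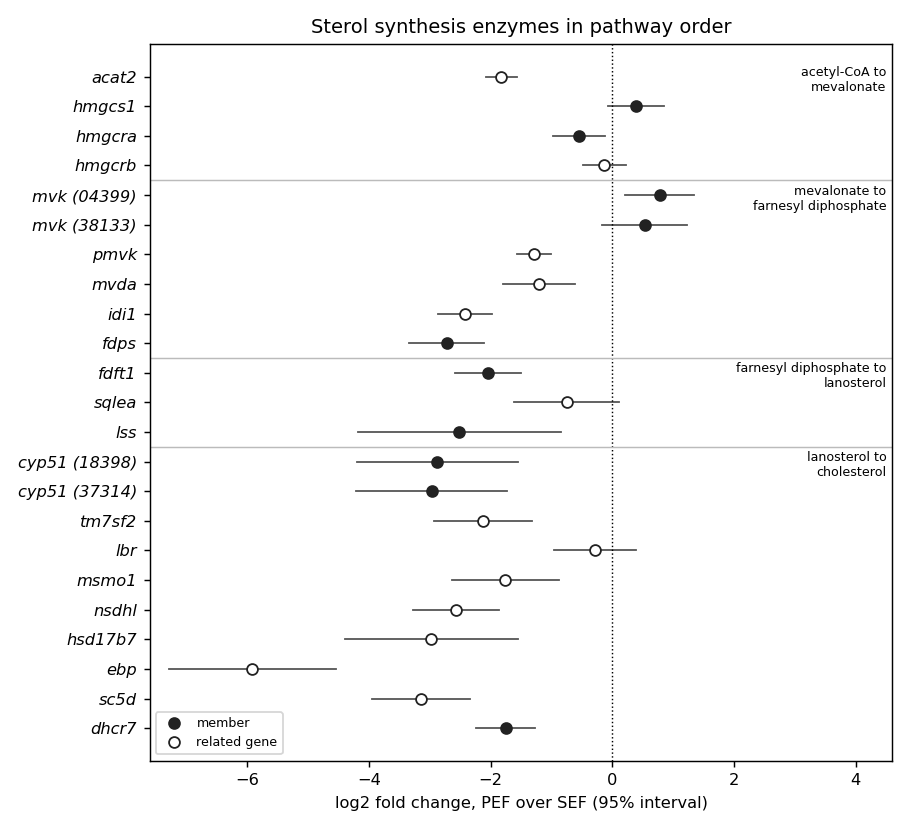
Log2 ratio, PEF over SEF, of 23 of the 24 rows in pathway order from top to bottom, with 95% intervals from the edgeR fit; filled points are members, open points related genes, and grey lines separate the 4 stages. Values near 0 lie mostly in the upper part, and of the rows plotted from lanosterol to cholesterol *lbr* lies nearest 0, at -0.28.

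Within PEF, most pathway genes were highest in replicate 1. PEF replicate 1 was above both other PEF libraries for 9 of the 12 member rows and 18 of all 24 synthesis rows, against 37.9% of all genes tested. It was more than 2-fold above their mean for 3 member rows, *lss* and both *cyp51* rows, and for 10 of the 24 synthesis rows, against 4.41% of all genes tested. For the related gene *hsd17b7*, a 3-keto sterol reductase, this excess was 4.47-fold, and its log2 ratio of -2.97 was -4.06 without PEF replicate 1. The excess was 1.01-fold for *acat2* and 1.24-fold for *aacs*. In SEF, the median deviation of the 24 rows from the mean of the line stayed between -0.08 and 0.05 log2 CPM in each library, while in PEF it was 0.55, -0.22 and -0.36 in replicates 1, 2 and 3. The 6 fibroblast markers also summed highest in PEF replicate 1, at 13832 TPM against 9642 and 8097 TPM. In SEF they likewise summed highest in replicate 1, at 10375 TPM against 7529 and 6352 TPM. The liver marker *tfa* was at 6.42 TPM in PEF replicate 1 against 0.88 and 0.44 TPM, and at 8.21 to 11.3 TPM in SEF. Reads outside genes made up 31.7% of PEF replicate 1 against 30.01% and 30.5%. The part of these differences in the result was not tested. In PEF replicate 1 itself, 17 of the 18 synthesis rows called lower were below every SEF library. Those rows were called with this library in the fit, so that count was partly fixed in advance and is no separate support. Without PEF replicate 1, edgeR called 9 members lower and 1 higher, beside 5783 genes lower and 5185 higher of 17201 tested.

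**Figure D3:**
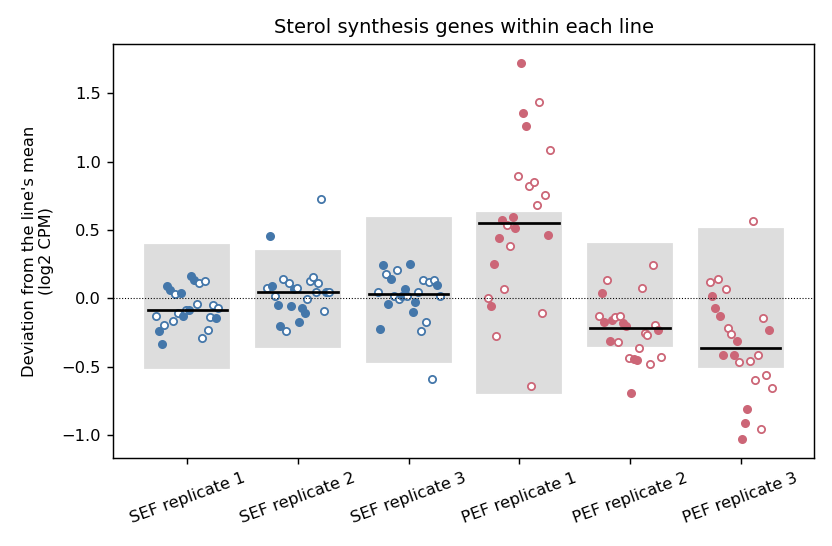
Deviation of each of the 24 synthesis rows from the mean of its own line, in log2 CPM, for every library; filled points are members, open points related genes, the black bar is their median and the grey box spans the central 90% of all genes tested. PEF replicate 1 had a median of 0.55 with single rows up to 1.72, and the SEF medians lay near 0.

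The duplicate genes of the low-density lipoprotein receptor differed in level and in direction. *ldlra* (ENSAMXG00000034717) was the lowest of the members in each line. It had 199, 286 and 135 reads (1.43, 1.72 and 0.83 TPM) in SEF and 4, 3 and 6 reads (0.03, 0.02 and 0.03 TPM) in PEF. The lines did not overlap, and the log2 ratio was -5.52 (SE 0.41, edgeR adjusted p = 3.73e-05). The ratio of summed reads, SEF over PEF, was 47.4, with a 95% counting interval from 27.5 to 89.5 that covers counting error only. Its duplicate *ldlrb* was far more abundant and differed the other way, at 44.7, 53.7 and 85.0 TPM in SEF and 186, 149 and 142 TPM in PEF (log2 ratio 1.4, SE 0.25, edgeR adjusted p = 0.00238). Together the receptor genes summed to 46.1 to 85.9 TPM in SEF and 142 to 186 TPM in PEF, so the summed RNA of the receptor genes was higher in every PEF library. Reads that match both duplicates could be lost or shared out in the authors' processing, which was not examined.

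The genes of the ubiquitin ligase MYLIP, which in mammals marks the receptor for degradation, differed in opposite directions: *mylipa* was at 3.19 to 3.67 TPM in SEF and 22.3 to 32.6 TPM in PEF (log2 ratio 3.02, edgeR adjusted p = 1.64e-05), and *mylipb* at 13.97 to 18.9 TPM in SEF and 3.55 to 5.67 TPM in PEF (log2 ratio -1.57, edgeR adjusted p = 0.000959). The receptor gene *vldlr* was higher in PEF, at a log2 ratio of 1.58 (edgeR adjusted p = 0.000748).

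Of the list of other uptake and endosomal cholesterol genes, 17 of 18 rows were tested, and 8 were lower (33.1% over all genes), 3 higher (30.4% over all genes) and 6 not called. The rows lower in PEF included the genes that release lipoprotein cholesterol from late endosomes, *npc1* at a log2 ratio of -0.82 (edgeR adjusted p = 0.000591) and *npc2* at -0.92 (edgeR adjusted p = 0.00349). They also included the sterol carrier gene *stard3*, at -1.44 (edgeR adjusted p = 0.000140).

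The genes of the SREBP pathway, *srebf2* and its regulators, differed in both directions. *srebf2* was at 71.2, 78.3 and 64.8 TPM in SEF and 31.7, 31.3 and 30.8 TPM in PEF (log2 ratio -1.10, SE 0.10, edgeR adjusted p = 7.84e-05). PEF libraries hardly differed for this gene, and PEF replicate 1 did not stand out. *insig1*, itself a target of SREBP2 in mammals, had a log2 ratio of -0.74 (edgeR adjusted p = 0.000764) and *insig2* of -0.30 (edgeR adjusted p = 0.0163, or 0.0779 without PEF replicate 2). *scap*, which escorts SREBP out of the endoplasmic reticulum, was at only 0.29 to 0.54 TPM in SEF and 0.87 to 1.32 TPM in PEF (log2 ratio 1.33, edgeR adjusted p = 0.00663). *mbtps1*, the first protease that cuts SREBP, was at 36.6 to 43.8 TPM in SEF and 136 to 155 TPM in PEF (log2 ratio 1.97, edgeR adjusted p = 9.73e-06), and the second, *mbtps2*, did not pass (-0.08, 95% interval -0.39 to 0.22). The 397 other tested genes on the RefSeq chromosome of *mbtps1* had a median of 0.57, and its part was not tested. *syvn1*, a ubiquitin ligase of the endoplasmic reticulum, was higher in PEF by 1.56 (edgeR adjusted p = 9.35e-05). Of the 9 regulator rows tested, 4 were higher, 3 lower and 2 not called, where 30.4% and 33.1% of all genes were higher and lower. The name *srebf1* matched no row and was not analysed here.

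**Figure D4:**
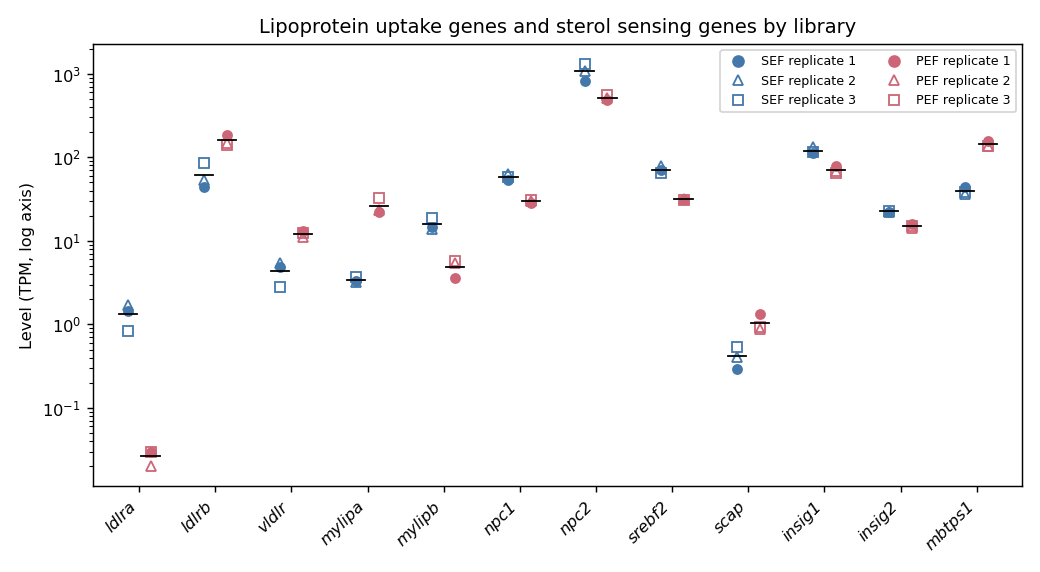
Level of 12 genes of lipoprotein uptake and transport and of the SREBP pathway in every library, in TPM on a log axis, drawn as for the members. The 2 receptor duplicates *ldlra* and *ldlrb* differ in opposite directions, as do *mylipa* and *mylipb*.

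*aacs* (ENSAMXG00000037474) encodes acetoacetyl-CoA synthetase, which returns the ketone body acetoacetate to acetoacetyl-CoA for lipid synthesis in the cytosol. It was at 38.3, 54.5 and 43.5 TPM in SEF, close to the lower *cyp51* row, and at 1.07, 1.11 and 0.45 TPM in PEF, on 24 to 56 reads. It was 46.9-fold lower in PEF (log2 ratio -5.55, SE 0.30, edgeR adjusted p = 9.28e-06). PEF replicate 1 lay between the other PEF libraries.

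Of 13 rows for ketone body and acetyl-CoA enzymes, 11 were tested, and 6 were lower, 4 higher and 1 not called, beside 33.1% lower and 30.4% higher over all genes. *oxct1a*, for a mitochondrial enzyme of ketone body breakdown, had 1813, 2159 and 1734 reads in SEF and 3, 4 and 5 in PEF, a ratio of 473 with a 95% counting interval from 270.3 to 915. The citrate carrier exports citrate from mitochondria and ATP citrate lyase splits it into cytosolic acetyl-CoA, and their genes differed in size and direction. The carrier row *SLC25A1* had a log2 ratio of -3.65 (edgeR adjusted p = 0.000122), while *slc25a1a* was at 0.41 without passing (95% interval -0.18 to 0.99). *slc25a1b* was higher in PEF at 0.49 (edgeR adjusted p = 0.0485), a call that was lost with DESeq2 (adjusted p = 0.0610) and, with edgeR adjusted p-values from 0.0748 to 0.145, without any library other than SEF replicate 2. Of the lyase genes, *aclya* had a log2 ratio of -2.02 (edgeR adjusted p = 0.00534), and the more abundant *aclyb*, at 167 to 175 TPM in SEF and 78.95 to 100.2 TPM in PEF, one of -0.92 (edgeR adjusted p = 0.000268). *acat1*, the mitochondrial thiolase, was higher in PEF at a log2 ratio of 1.02 (edgeR adjusted p = 9.13e-05).

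**Figure D5:**
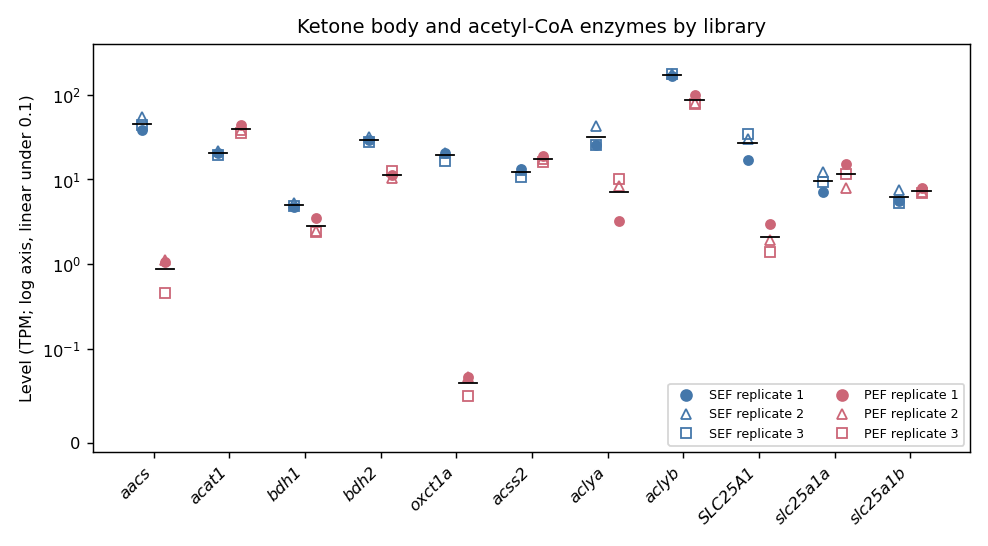
Level of *aacs* and 10 related ketone body and acetyl-CoA genes in every library, in TPM on a log axis that is linear under 0.1, drawn as for the members. *aacs*, *oxct1a* and *SLC25A1* were lower in all PEF libraries by the widest margins, and *acat1* and *acss2* lay higher in PEF by smaller margins.

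Genes of cholesterol export and of other branches completed the comparison. Of 16 rows for efflux, esterification and oxysterols, 7 had enough reads, with 3 higher and 3 lower in PEF, beside 30.4% and 33.1% over all genes. The exporter gene *abca1a* was at 3.52 to 7.99 TPM in SEF and 14.2 to 26.1 TPM in PEF (log2 ratio 1.87, SE 0.35, edgeR adjusted p = 0.00286). A further row named *ABCA1* was at 0.07 to 0.14 TPM in SEF and at 0.17, 1.30 and 2.47 TPM in PEF (log2 ratio 3.84, edgeR adjusted p = 0.00766). The log2 ratio of *ABCA1* was 3.07 without PEF replicate 3 and 4.37 without PEF replicate 1, and the call was lost with limma on unfiltered log2(TPM + 1) (adjusted p = 0.0831). The liver X receptor gene *nr1h3*, a sterol-sensing activator of such exporters in mammals, was higher by 1.54 (edgeR adjusted p = 0.00148). *apoeb*, an apolipoprotein E gene, was at 414, 162 and 105 TPM in SEF and 4.97, 3.24 and 7.52 TPM in PEF (log2 ratio -5.33, SE 0.63, edgeR adjusted p = 0.000286). Without SEF replicate 1, its highest library, it was -4.57. Of 14 genes of other isoprenoid branches, which draw on the same farnesyl diphosphate, 5 were higher, 3 lower and 6 not called, which is near those shares for the higher genes (30.4%) and under them for the lower (33.1%). Their median log2 ratio of 0.09 lay near that of all genes, and *pdss2*, for the ubiquinone side chain, was highest at 1.77 (edgeR adjusted p = 3.00e-05). *coq2* and *pdss1*, of the same route, were higher by 1.08 and 0.94 (edgeR adjusted p = 0.00225 and 0.00232). The 3 lower genes were *rabggtb*, *fntb* and *icmt*, at log2 ratios of -0.64, -0.54 and -0.53. Their edgeR adjusted p-values were 0.00437, 0.00356 and 0.0161, and that of *icmt* was 0.0645 without PEF replicate 2.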

How the data were processed

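Per the labels, libraries came from a stranded mRNA kit. The authors deposited read counts per gene, made with STAR 2.7.3a and not normalized, and TPM values from RSEM. The genome build, annotation and strand setting for these libraries are not given in the sources used here, so overlapping genes are uncertain. In the counts, 4 rows that name no gene, with 38.8% to 41.1% of a library, were left out.

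Read counts were tested with edgeR 4.0.16 in R 4.3.3 (TMM, filterByExpr, quasi-likelihood test, Benjamini-Hochberg adjustment over all 16670 genes tested). Standard errors came from the F statistic. The levels are TPM, and log2 CPM values used a prior count of 2. Counting intervals are exact binomial. The methods were tested on simulated counts in which far fewer genes differed than were called here. That simulation therefore does not cover a difference as broad as the one between these lines. Alternatives were DESeq2 1.42.0, upper-quartile scaling, other filters, limma 3.58.1 on log2 TPM, an edgeR threshold test (log2 ratio 1), a block on replicate number and leaving out each library.

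Members and lists were chosen with earlier results of these data known. Named genes are all members, genes of each list that passed without overlap (the largest 3 first) and a fixed set of regulators and enzymes. *sqlea* stands for the listed name *sqle*, and *lbr*, *mbtps2*, *slc25a1a*, *slc25a1b* and *tfa* were chosen after their values were seen. Symbols matched to RefSeq gave chromosomes. Promoter and protein sequences were not analysed here. Some genes that the rule names are not reported here.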

Additional observations from a re-analysis of the deposited data

How the results depend on the processing

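Over the alternatives run, no member changed direction. The 7 member rows *fdps*, *fdft1*, *cyp51* (both rows), *dhcr7*, *ldlra* and *aacs* stayed past the threshold wherever they were tested, and *lss* except against a log2 fold change of 1 (adjusted p = 0.0619). Between 8 and 9 members were lower when each library was left out, and between 0 and 1 higher. Over all genes, 4969 to 5783 were then lower and 4320 to 5185 higher, of 16966 to 17201 tested. The *mvk* call was also lost with limma on log2(TPM + 1), filtered or not, and on filtered log2(TPM + 0.1), where 0 members were higher. Tested against a log2 fold change of 1, edgeR called 5103 of 16670 genes, 1994 higher and 3109 lower. It called 0 members higher. Of 9 regulators, 2 were higher and 0 lower, and of 17 uptake genes 4 were lower. Of 7 efflux genes 1 was lower, and of 14 isoprenoid genes 1 was higher and 0 lower. Of 11 ketone body and acetyl-CoA genes, 0 were higher. Of the latter, limma called 2 higher under each TPM setting, beside 4078 to 4684 genes higher of 14593 to 23839 tested. Efflux genes lower numbered 5 without a filter, beside 6434 of 23769 genes. With at least 10 reads in every library, 1 was lower, beside 3748 of 13388. Of the values near 0, 2 changed sign, *hmgcrb* to 0.0068 without PEF replicate 1 and *mbtps2* to 0.015 without SEF replicate 1, with ranges over left-out libraries from -0.23 and -0.17. Replicate numbers did not pair the libraries, with correlations of same-numbered deviations of -0.04, 0.07 and -0.13. With the number as a block, 9735 genes were called, 5120 of them lower, and 8 members were lower, since *hmgcra* was lost (adjusted p = 0.0811). Depth limits, among others, *ldlra*, *ebp* and *oxct1a* in PEF, *scap* (21 to 49 reads) and *ABCA1* (11 to 16 reads) in SEF, and *mvk*.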
